A study of Mus musculus with 12 samples.

Results

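The comparison described here set the hippocampus of Syt14 knockout mice against that of wild-type mice, over all genes that were read often enough to be tested. Its members are the 6 hippocampus libraries of a series of 12, chosen by the tissue in their labels: 3 labelled as Syt14 knockout, with the genotype Syt14-/-, and 3 labelled as wild type, Syt14+/+. Of the 54446 gene identifiers in the count table, 17693 passed the filter on low counts. The study asked how Syt14 bears on mood disorder and on coordination of movement. Each library came from a different animal number in the labels, so the 3 libraries of a group are treated as 3 animals. For age, sex, strain background and the altered part of the gene, nothing is given in the labels used here. Strand-specific libraries were made from polyadenylated RNA of whole tissue.

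Synaptotagmins are membrane proteins of vesicles and other organelles, and several of them couple a rise in calcium to the fusion of vesicles with the cell membrane. Syt14 belongs to the members whose C2 domains do not bind calcium in the way of the synaptic sensor Syt1. The hippocampus is a forebrain structure for memory and emotional behaviour, in which dentate granule cells and the pyramidal cells of the fields CA3, CA2 and CA1 form a chain of excitatory neurons. Its RNA also holds transcripts of interneurons, glia and blood vessels.

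Between 24932098 and 30504437 counts were assigned per library, so that 3 counts, taken as the floor, equal 0.0983 to 0.120 counts per 1000000 (CPM). Mitochondrially encoded transcripts made up 4.04 to 4.52% of each library. Levels below are CPM scaled with trimmed-mean (TMM) factors. A log2 fold change is knockout over wild type from the edgeR fit, with its SE and n = 3 per group. In whole tissue, fewer cells of a type and less RNA per cell cannot be told apart.

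No gene passed edgeR's quasi-likelihood test at a Benjamini-Hochberg adjusted p of 0.05: 0 of 17693 genes, or 0%, were called. At an unadjusted p under 0.05 there were 767 genes, or 4.34% of those tested, of which 454 (2.57%) were higher and 313 (1.77%) lower in the knockout. The same threshold would take 884.65 genes if p-values were spread evenly. Without knockout 3 that count was 1400, with 672 higher and 728 lower. DESeq2 called 2 genes, Syt14 and Slc7a11, each at an adjusted p of 0.0425, and limma-voom called 0. The lowest knockout library exceeded the highest wild-type one in 922 genes (5.21%), and the reverse held in 804 (4.54%). The genes that follow are therefore described by their values. Syt14 and Slc7a11 passed with DESeq2 and its own filter, and Ptprb and Per1 joined them when DESeq2 was run on the genes of the edgeR filter.

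Promoter windows of 4 genes are shown first because the values below concern them: the targeted gene, the clock gene Per1, the phosphatase gene Dusp5, and Hmgcs1, the cholesterol synthesis gene whose window holds a sterol element. Each window runs from 250 bases before to 50 bases after a transcription start in RefSeq on GRCm38.p6, 5′ to 3′ on the strand of the gene. Capitals mark the letters of a searched motif.
Syt14, chr1:193035726-193036025, minus strand, E-box CACGTG in capitals: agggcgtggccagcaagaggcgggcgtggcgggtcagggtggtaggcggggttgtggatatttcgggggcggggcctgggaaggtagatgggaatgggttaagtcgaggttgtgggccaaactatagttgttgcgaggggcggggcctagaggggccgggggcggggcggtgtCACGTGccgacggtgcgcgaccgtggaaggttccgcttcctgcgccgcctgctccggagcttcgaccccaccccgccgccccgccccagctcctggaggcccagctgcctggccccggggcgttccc
Per1, chr11:69098699-69098998, plus strand, E-box CACGTG in capitals: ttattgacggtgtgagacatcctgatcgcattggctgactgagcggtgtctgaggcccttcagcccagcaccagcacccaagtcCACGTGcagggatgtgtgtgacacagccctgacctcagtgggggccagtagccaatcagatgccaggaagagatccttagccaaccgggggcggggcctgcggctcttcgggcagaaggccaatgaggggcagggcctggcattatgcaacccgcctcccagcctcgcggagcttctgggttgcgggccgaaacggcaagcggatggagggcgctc
Dusp5, chr19:53528895-53529194, plus strand, 2 adjacent CArG boxes in capitals: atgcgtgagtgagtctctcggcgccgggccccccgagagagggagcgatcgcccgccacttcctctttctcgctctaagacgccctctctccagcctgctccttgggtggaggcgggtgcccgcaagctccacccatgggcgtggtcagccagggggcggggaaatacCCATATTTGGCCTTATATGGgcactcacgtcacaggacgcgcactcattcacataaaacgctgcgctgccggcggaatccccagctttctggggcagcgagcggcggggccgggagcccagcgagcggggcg
Hmgcs1, chr13:119690101-119690400, plus strand, sterol element TCACNCCAC in capitals: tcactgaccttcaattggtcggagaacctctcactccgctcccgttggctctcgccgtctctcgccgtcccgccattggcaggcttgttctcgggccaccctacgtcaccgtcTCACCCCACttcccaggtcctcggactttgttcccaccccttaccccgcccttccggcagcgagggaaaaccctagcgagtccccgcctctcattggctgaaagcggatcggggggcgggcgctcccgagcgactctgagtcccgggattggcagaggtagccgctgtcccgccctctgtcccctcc
Motifs were searched on both strands, and a match is a description of letters, not a binding site. Of all 32851 mouse windows of this length, 7.15% held the E-box, 1.79% the cyclic AMP element TGACGTCA (in none of the windows shown), 1.63% a CArG box (the serum response element core, which may overlap other motifs) and 1.24% the sterol element.

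Syt14 (chromosome 1, 192891233 to 193035775 on GRCm38, minus strand) was read in every library. Its level was 27.8, 26.8 and 29.2 CPM in knockout 1, 2 and 3 and 36.6, 37.2 and 36.2 CPM in wild type 1, 2 and 3. All 3 knockout values lay below all 3 wild-type values, and each group spanned a narrow range. The log2 fold change was -0.39 ± 0.06 (SE, n = 3), with a 95% interval of -0.53 to -0.26, an edgeR p of 3.88e-05 before and 0.686 after adjustment. Over the 14 alternative fits the adjusted p ranged from 3.22e-04 to 0.9998 and the log2 fold change from -0.43 to -0.37. A two-sided exact permutation test gave p = 0.1, the smallest that 3 against 3 can give. The gene-level counts do not show which exons the reads came from, so they do not check the part of the gene that was altered.

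Among the other synaptotagmins, levels per length put Syt14 in 13th place of the 16 tested in wild-type hippocampus, at 3.07 ± 0.06 CPM per kb of exon (SD, n = 3). Syt1, the calcium sensor of fast transmitter release, came first at 212 CPM per kb, followed by Syt11 at 161 and Syt7, a sensor of slower release, at 61.7. The nearest neighbours of Syt14 in that order were Syt10 at 3.69 and Syt9 at 1.86 CPM per kb. Syt7 held 512, 473 and 517 CPM in the knockout against 457, 476 and 456 CPM in wild type, a log2 fold change of 0.11 ± 0.04. Its groups overlapped through knockout 2. Syt1 lay at -0.08 ± 0.04. Apart from Syt14 and Syt7, no family member had an unadjusted p under 0.05, and the 95% intervals of 10 of the 16 stayed within 0.32 log2 units of 0.

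Close to Syt14 on chromosome 1, the next genes with moderate levels were also lower in the knockout. Sertad4, 35477 bases away, held 18.9, 15.4 and 17.9 CPM in the knockout and 22.4, 23.4 and 20.7 CPM in wild type, with a log2 fold change of -0.35 ± 0.09. Diexf, 55329 bases away on the other side, held 19.6, 18.4 and 20.5 CPM against 21.9, 21.2 and 22.5 CPM, with a log2 fold change of -0.17 ± 0.08. In both genes the groups did not overlap, where 4.54% of all genes had every knockout library below wild type. Sertad4 is also one of the 15 lower genes below, which were chosen for separate groups. The predicted genes Gm2367 and Gm15867, also in this stretch, were read at about 1 CPM or less with overlapping groups. The next genes of like or higher level lay 185859 to 381074 bases away. Their groups overlapped, with log2 fold changes of -0.06, 0.08 and -0.02.

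The 15 genes higher in the knockout with the smallest p, non-overlapping groups and at least 1 CPM began with Per1, a core clock gene that glucocorticoids and neuronal activity also induce. Per1 held 99.9, 97.4 and 105 CPM in the knockout and 82.6, 87 and 75 CPM in wild type, a log2 fold change of 0.30 ± 0.06 with an edgeR p of 2.21e-04 before and 0.792 after adjustment. Dnajb5, a heat shock protein of the J-domain family, stood at 166, 162 and 156 CPM against 141, 136 and 135 CPM. Its log2 fold change of 0.23 ± 0.04 was among the smallest of the 15, but its libraries lay close together within each group. Dusp5, a nuclear phosphatase that removes phosphate from ERK, held 28.1, 26.9 and 28.6 CPM against 21.4, 23 and 19.3 CPM, or 0.39 ± 0.08 on the log2 scale. Tiparp, an ADP-ribosyltransferase gene, held 22.8, 24.1 and 27.6 CPM against 19.3, 17.2 and 19.8 CPM (0.40 ± 0.09). Chrm4, an inhibitory muscarinic acetylcholine receptor, held 17.4, 16.6 and 18.8 CPM against 11.7, 14.5 and 13.5 CPM (0.41 ± 0.10). Kdm6b, a histone H3 lysine demethylase, held 53.9, 52 and 50.2 CPM against 44, 45.6 and 38.3 CPM (0.29 ± 0.07).

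The largest fold among these 15 was that of Draxin, a guidance protein for growing axons, at 1.76, 1.83 and 1.64 CPM against 0.898, 0.8 and 0.374 CPM. Its log2 fold change of 1.33 ± 0.33 rested on a low level in every library, and wild type 3 held less than the other wild-type libraries. Tnfrsf25, a death-domain receptor, held 39.7, 30.9 and 27.5 CPM against 22.3, 24.3 and 15.4 CPM (0.66 ± 0.16). Tent5a, a poly(A) polymerase gene, held 10.6, 10.4 and 8.87 CPM against 6.66, 7.35 and 5.98 CPM (0.58 ± 0.13). The remaining members, with log2 fold changes from 0.22 to 0.42, were Shkbp1, Utp14b, Ppib, Midn, Mfap3 and Dvl2. Ppib is a folding enzyme of the endoplasmic reticulum and Dvl2 a signal carrier of the Wnt pathway. Utp14b lies within the more abundant Acsl3 on the same strand, and Dvl2 overlaps Acadvl on the other, so the counting could have mixed their reads. Draxin, at about 1 CPM, likewise overlaps the more abundant Mad2l2 on the opposite strand, and Ppib overlaps Snx22.

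Of the 15 genes lower in the knockout, Syt14, Ptprb and Slc7a11 had the smallest p. Ptprb, a phosphatase of the endothelial surface, held 42.8, 48.7 and 47.5 CPM in the knockout and 56.4, 59.3 and 60.4 CPM in wild type, a log2 fold change of -0.34 ± 0.06 with an edgeR p of 1.25e-04 before and 0.792 after adjustment. Slc7a11, the light chain of the cystine and glutamate exchanger that supplies cysteine for glutathione, held 42.4, 46.8 and 49.7 CPM against 57.3, 63.9 and 58.5 CPM. Its log2 fold change was -0.37 ± 0.07. Slc8a1, a sodium and calcium exchanger of the cell membrane, held 44.1, 43.7 and 44.6 CPM against 55.5, 48.7 and 57.8 CPM (-0.29 ± 0.07). In all 3 genes the highest knockout library lay below the lowest wild-type library, which the rule for choosing the 15 required.

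Tenm3, a teneurin that matches partner cells across the hippocampal circuit, held 135, 137 and 138 CPM against 161, 148 and 165 CPM (-0.21 ± 0.05). Onecut2, a transcription factor gene, held 9.88, 10.1 and 9.86 CPM against 13.7, 12.6 and 12.8 CPM (-0.39 ± 0.09). Flrt3, a synaptic adhesion protein that binds latrophilins, held 38.6, 43.4 and 38.2 CPM against 47.8, 48.8 and 46.3 CPM (-0.25 ± 0.06). Flrt3 lies inside Macrod2 on the opposite strand. Cxcl12, a chemokine for migrating cells, held 62.8, 67 and 65.9 CPM against 74.4, 74 and 78.1 CPM (-0.21 ± 0.05). Akap12, a scaffold for protein kinase A, and Acot9, a mitochondrial thioesterase, lay at -0.30 ± 0.08 and -0.31 ± 0.09. The widest fold was in Cped1, at 1.84, 2.13 and 2.86 CPM against 3.63, 5.02 and 3.4 CPM (-0.81 ± 0.22), where wild type 2 stood above the rest.

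**Figure D1:**
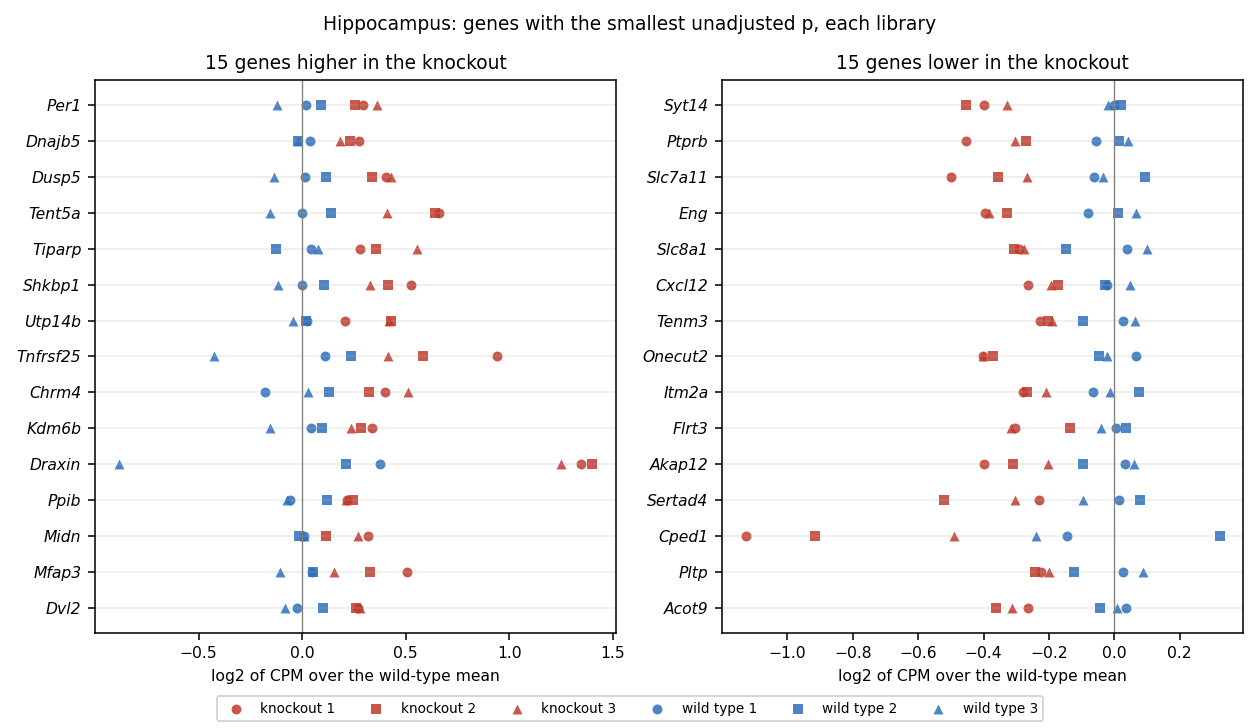
Each row is a gene, and each point is the log2 of a library's CPM over the mean of the 3 wild-type libraries, with knockout in red and wild type in blue and the replicate as the shape. The 15 genes at left lie above, and the 15 at right below, the wild-type libraries in all 3 knockout libraries, which the rule of choice fixed; most differences are under 0.5 on this scale, and Draxin and Cped1 are the widest.

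Among the 15 lower genes Ptprb, Eng, Itm2a and Pltp are members of the vessel lists. The endothelium lines brain vessels and carries the blood-brain barrier, with tight junctions that seal it and transporters that move nutrients across it. All 18 endothelial markers passed the filter, and 18 of 18 had a log2 fold change below 0, with a median of -0.25, against 50.8% above 0 over all genes. Of these, 7 had an unadjusted p under 0.05 in the lower direction, where 1.77% of all genes did. In 7 the groups did not overlap, all lower, where 4.54% of all genes did. None passed the adjusted test. Ptprb, Eng and Itm2a, already chosen above by p and separate groups, count in both of these shares. The gene lists were chosen with earlier results of these data known. Shares of list members, here and for the lists below, therefore describe the lists and are not an independent test of them. Eng, a co-receptor for BMP and TGF-beta ligands, held 16.9, 17.7 and 17 CPM in the knockout and 21, 22.4 and 23.2 CPM in wild type (-0.37 ± 0.08). Itm2a, a membrane protein gene, held 35.5, 35.9 and 37.3 CPM against 41.2, 45.4 and 42.7 CPM (-0.25 ± 0.06).

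Receptor and junction genes of the endothelium had more spread, and the groups of several overlapped. Cdh5, the adherens junction cadherin, held 9.32, 10.2 and 10.5 CPM against 11.7, 11.7 and 14.2 CPM (-0.32 ± 0.11). Kdr, the main VEGF receptor, held 14.2, 17.1 and 12.6 CPM against 19, 15.6 and 25.1 CPM (-0.44 ± 0.16), and its groups overlapped because wild type 2 was low. Without wild type 3, the highest library, its log2 fold change was -0.24. Flt1, a VEGF receptor that acts largely as a decoy, lay at -0.19 ± 0.08 with overlapping groups. Tie1, an orphan receptor of the angiopoietin system, lay at -0.24 ± 0.10, and Sox17 and Robo4 completed the 7 whose groups did not overlap. Cldn5, the main claudin of the barrier, held 14.8, 21.2 and 20 CPM against 23, 23 and 29.7 CPM (-0.43 ± 0.13). The other 7 tight junction genes had overlapping groups, among them Tjp1 at 122 to 127 CPM in all 6 libraries, and the median of the 8 was -0.03. Marveld2, a protein of junctions where cells meet, lay farthest above 0, at 1.88, 1.15 and 1.35 CPM against 0.898, 0.8 and 1.5 CPM (0.45 ± 0.33).

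Of 13 barrier transporter genes, 10 lay below 0, with a median of -0.13 (-0.16 to -0.07 with 1 library left out), and 5 had an unadjusted p under 0.05, all lower, where 1.77% of all genes did. Slco1a4, an organic anion transporter, held 41.1, 49.3 and 48.1 CPM against 51.8, 54.7 and 58.1 CPM (-0.25 ± 0.07). Slc7a5, which carries large neutral amino acids, and Slco1c1, which carries thyroid hormone, lay at -0.14 ± 0.05 and -0.13 ± 0.06, each with knockout libraries below wild type throughout. Pltp, a phospholipid transfer protein, lay at -0.22 ± 0.06 and overlaps Ctsa on the opposite strand. Abcb1a, the drug efflux pump, lay at -0.19 ± 0.08 with overlapping groups.

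Mural cells wrap the endothelium, and 10 of their 12 markers passed the filter. Of these 8 lay below 0, with a median of -0.13. Rgs5, a pericyte regulator of G proteins, held 99.8, 104 and 96 CPM against 106, 111 and 114 CPM (-0.15 ± 0.05). Vtn, a pericyte matrix protein, lay at -0.28 ± 0.09 and Myh11, a smooth muscle myosin, at -0.48 ± 0.22, both with overlapping groups, and without wild type 2 they stood at -0.18 and -0.20. Higd1b, a pericyte marker, had separate groups in the other direction, at 1.8, 1.93 and 1.58 CPM against 0.973, 1.49 and 1.2 CPM (0.53 ± 0.26). With 1 library left out, the median of the 10 mural markers ran from -0.21 to -0.10. Markers of meninges and fibroblasts, a tissue at the surface of a dissection, were lower in 13 of 14, with a median of -0.57. Their summed level was 103 to 110 CPM in the knockout and 109 to 214 CPM in wild type, with wild type 2 the highest. That sum includes Dcn, which is also on the ventral hippocampus list and is given below. The mean log2 CPM of the list, minus its mean over the 6 libraries, was -0.54, -0.30 and 0.05 in the knockout. In wild type it was -0.01, 0.97 and -0.17, so that knockout 3 lay above wild type 1 and wild type 3. The part of meningeal tissue in the vessel values was not tested. Without wild type 2, 15 of 18 endothelial markers lay below 0 with a median of -0.24, while the meningeal median was -0.14. Leaving out any 1 library kept the endothelial median between -0.32 and -0.21.

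**Figure D2:**
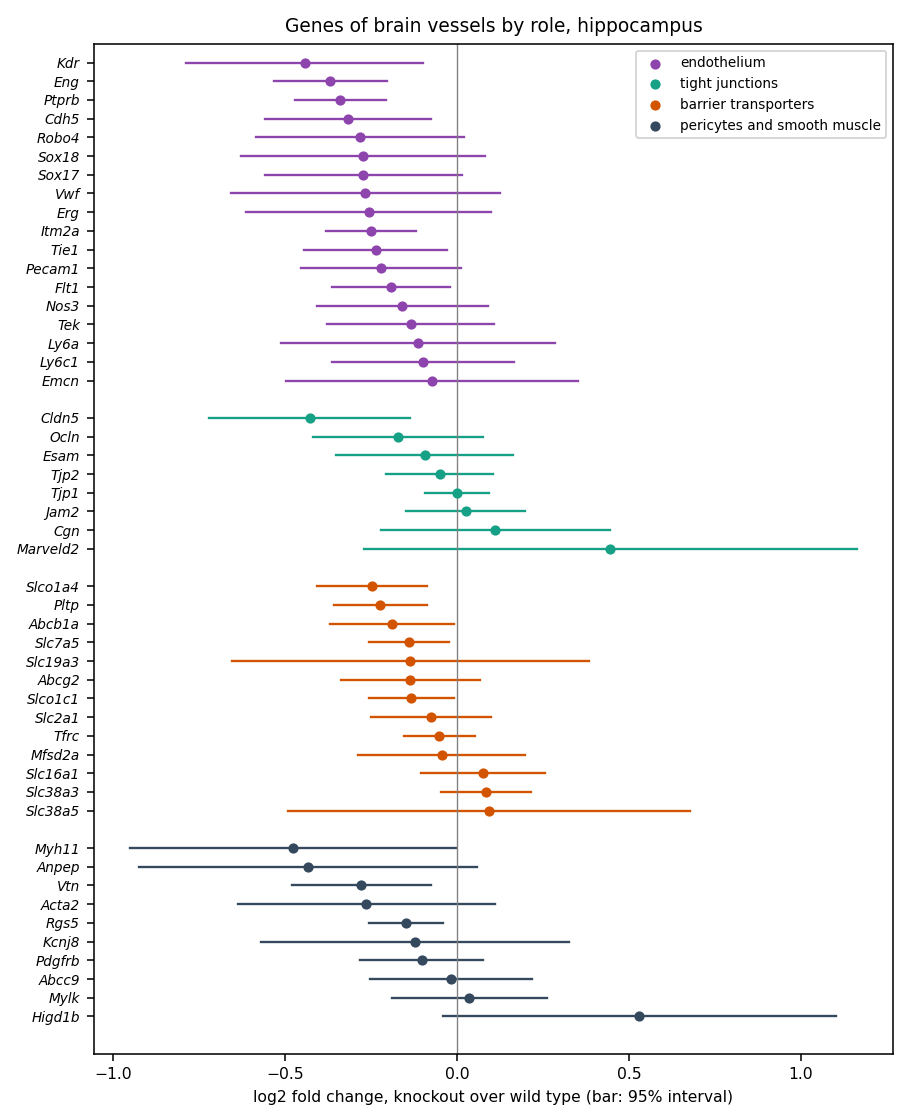
Points are log2 fold changes of knockout over wild type and bars are 95% intervals, for endothelial markers, tight junction genes, barrier transporters and mural cell markers. All 18 endothelial points lie below 0, 11 of their intervals reach across it, and in the tight junction group Cldn5 is the lowest and Marveld2 the highest, with a wide interval.

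Enzymes of cholesterol synthesis lay slightly higher in the knockout throughout the pathway. Neurons and astrocytes of the adult brain make their cholesterol locally, through enzymes that SREBP2 induces when membrane sterol is low. All 20 enzymes passed the filter, and 20 of 20 had a log2 fold change above 0, with a median of 0.11. Of these, 6 had an unadjusted p under 0.05 where 2.57% of all genes did in that direction, and in 9 the groups did not overlap, all higher, where 5.21% of all genes did. None passed the adjusted test. Early in the pathway, Mvd, which makes the isoprenoid unit, held 16.6, 17.1 and 15.9 CPM in the knockout and 14.1, 12.9 and 14.1 CPM in wild type (0.27 ± 0.08). Cyp51, the lanosterol demethylase, held 68, 65.2 and 68.6 CPM against 62.4, 58.4 and 57.9 CPM (0.18 ± 0.05), although it overlaps Akap9 on the opposite strand.

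Among later steps, Tm7sf2, a sterol reductase, lay at 0.26 ± 0.09, Sc5d, a desaturase, at 0.12 ± 0.05, and Msmo1, a methyl oxidase, at 0.12 ± 0.06. Hmgcs1, an early enzyme whose promoter window is shown above, held 212, 210 and 241 CPM against 196.1, 193 and 221 CPM (0.12 ± 0.06). Wild type 3 lay above 2 of the knockout libraries of Hmgcs1, and without knockout 3 its log2 fold change was 0.05. It was the 1 gene of the 15 in this list with a RefSeq window that held the sterol element. Without knockout 3, the median of the 20 was 0.06 and 17 lay above 0. Among genes that control or use the pathway, Insig1, a sterol sensor, lay at 0.17 ± 0.09 with overlapping groups, and at 0.07 without knockout 3. The regulator gene Srebf2 held 246, 231 and 265 CPM against 245, 237 and 251 CPM. Over the 10 genes of SREBP control and uptake the median was 0.02 and over the 8 of sterol efflux -0.01. In fatty acid synthesis 9 of 10 lay above 0 with a median of 0.05, led by Acsl3 (0.08 ± 0.04) and Fasn (0.06 ± 0.04).

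Genes that neuronal activity induces within minutes varied strongly between animals of 1 genotype. Of the 17 on the list, 16 lay above 0 with a median of 0.16, and 4 had an unadjusted p under 0.05, all higher, where 2.57% of all genes did. In none did the groups separate, where 9.76% of all genes had separate groups in either direction. Egr4, a zinc finger factor, held 37.4, 31.3 and 41.3 CPM in the knockout and 25.6, 23.1 and 32.3 CPM in wild type (0.44 ± 0.12). Nr4a1, an orphan nuclear receptor, held 89.2, 77.5 and 109 CPM against 64.6, 62.1 and 81.6 CPM (0.41 ± 0.12). Arc, a regulator of AMPA receptor traffic, held 145, 124 and 212 CPM against 113, 91.1 and 156 CPM (0.42 ± 0.19). In all 3 genes replicate 3 was the highest library of both groups. Fosb lay at 0.46 ± 0.17 and Egr2 at 0.90 ± 0.36, the latter from 4.16, 3.72 and 6.9 CPM against 1.57, 1.82 and 4.56 CPM.

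The summed level of these 17 genes was 737, 666 and 926 CPM in the knockout and 605, 538 and 802 CPM in wild type. Knockout 3 and wild type 3 were the highest libraries of their groups. Fos held 13, 13.2 and 23 CPM against 9.95, 6.04 and 22 CPM, and Npas4 held 14.3, 10.6 and 17.5 CPM against 10.3, 7.6 and 22.7 CPM, so that the order of single libraries crossed genotype. Without wild type 3 the median was 0.47, and without knockout 3 it was 0.07. Delayed activity genes lay above 0 in 10 of 13, with a median of 0.09. In 2 the groups were separate, 1 in each direction, where 9.76% of all genes had separate groups in either direction. Nrn1, a neurite growth protein, held 130, 133 and 131 CPM against 128, 128 and 124 CPM (0.05 ± 0.04). Ptgs2, the inducible cyclooxygenase, held 26, 25.1 and 21.8 CPM against 27.8, 27 and 30.8 CPM (-0.23 ± 0.08). Nptx2, a pentraxin that clusters AMPA receptors, lay at 0.27 ± 0.13 and Nr4a3 at 0.12 ± 0.07, both with overlapping groups.

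Feedback genes of the ERK pathway had less spread. Of 9, 8 lay above 0 with a median of 0.09, 3 had an unadjusted p under 0.05, all higher, and in 4 the knockout libraries all lay above wild type. Over all genes these shares were 2.57% and 5.21%. Besides Dusp5, these were Dusp6, a cytoplasmic ERK phosphatase, at 68.2, 62.7 and 60.1 CPM against 56.7, 50.2 and 58.4 CPM (0.21 ± 0.07), Spred3 at 0.13 ± 0.05 and Spry1 at 0.16 ± 0.10. The Dusp5 window was the 1 among the 7 windows of this list that held CArG boxes.

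The circadian clock list had 17 tested members, of which 13 lay above 0, with a median of 0.06. Clock genes form a loop in which Arntl and Clock drive the Per and Cry genes, whose proteins then repress them. Per2, a repressor of the loop, held 58.9, 51 and 49.9 CPM against 45.5, 48.5 and 32.9 CPM (0.33 ± 0.12), so that Per1 and Per2 were the 2 members with separate groups, both higher, where 5.21% of all genes were. Arntl, an activator, held 27.4, 29.6 and 28.5 CPM against 29.6, 30.9 and 34.9 CPM (-0.16 ± 0.07). Wild type 3 was the lowest library for Per1 and Per2 and the highest for Arntl, and the labels used here give no time of tissue collection. Without that library the log2 fold change of Per2 was 0.18. Ciart, Cry2 and Per3 lay at 0.21 ± 0.11, 0.10 ± 0.05 and 0.15 ± 0.08 with overlapping groups. Per3 overlaps Camta1, read at a mean of 408 CPM, on the same strand, so the counting could have mixed their reads. E-boxes stood in 6 of the 20 windows of clock genes, or 30%, the Per1 window above among them, although a second Per1 window held none. The share was 9.28% over windows of all tested genes and 27.8% over the 18 windows of the rapid activity genes. Of 18 glucocorticoid response genes, 9 lay above 0, and besides Per1 the group with separate libraries held Errfi1, an inhibitor of the EGF receptor, at 0.22 ± 0.06.

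**Figure D3:**
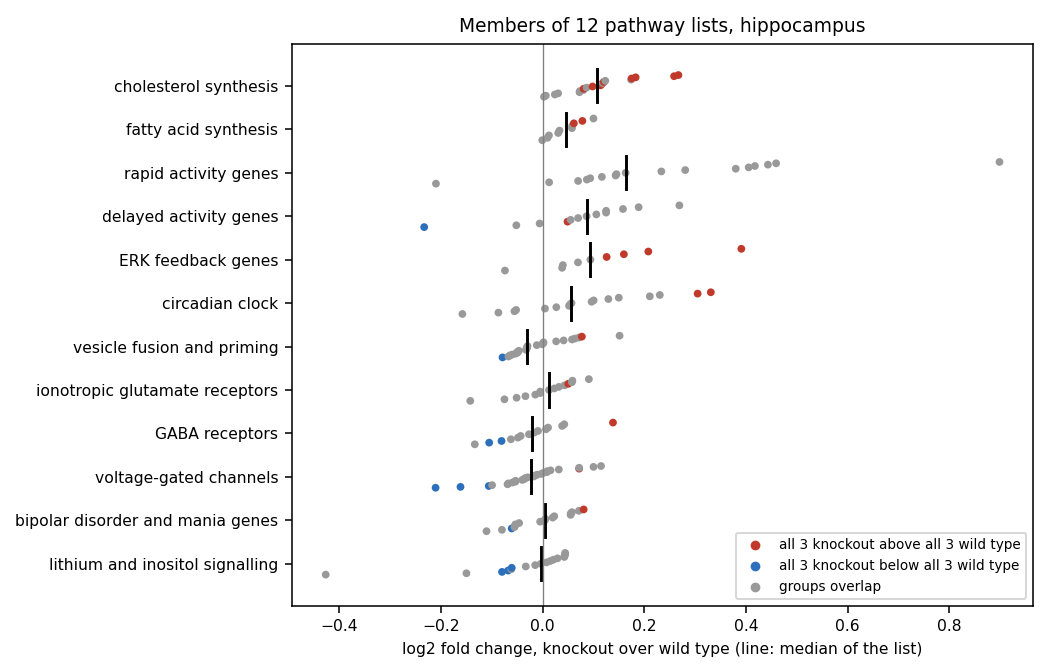
Each point is the log2 fold change of a gene in 1 of 12 lists and the black line is the median of the list. Red and blue points have all 3 knockout libraries above or below all 3 wild-type libraries, and grey points overlap. Cholesterol synthesis lies wholly above 0 with a median of 0.11, the rapid activity genes spread widest, and the receptor and channel lists lie close to 0.

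In the genes of synaptic transmission and excitability most intervals were narrow, as in other genes of their level. In vesicle fusion and priming, 22 of 24 intervals stayed within 0.32 log2 units of 0, where 51.9% of all genes did, and the median was -0.03. That share rose with level, to 84.2% of genes from 10 to 100 CPM and 98.9% at 100 CPM or more, and the median level of the list was 351 CPM. Snap25, a SNARE of the plasma membrane, lay at -0.06 ± 0.05. Pclo, an active zone scaffold, held 344, 352 and 350 CPM in the knockout and 359, 365 and 380 CPM in wild type (-0.08 ± 0.04). Unc13a, a priming factor, held 521, 487 and 495 CPM against 472, 483 and 470 CPM (0.08 ± 0.04). The AMPA, NMDA and kainate receptor subunits had a median of 0.01, with 14 of 15 intervals inside that range, and Grin1, the shared NMDA receptor subunit, lay at 0.05 ± 0.04. The 7 metabotropic glutamate receptors had a median of -0.00.

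For GABA receptor subunits, 14 of 14 intervals lay within 0.32 log2 units of 0, and the median was -0.02. Gabrd, the subunit of tonic inhibition in granule cells, held 28.1, 28.5 and 29.6 CPM against 26.6, 27 and 24.8 CPM (0.14 ± 0.07). Gabrb2 and Gabrg3 lay at -0.08 ± 0.04 and -0.10 ± 0.06 with separate groups, and Gabrb1 at -0.13 ± 0.06 with overlapping ones. Among 23 genes of monoamine signalling 13 lay above 0, with a median of 0.01.

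Voltage-gated channels had 24 of 26 intervals within 0.32 log2 units of 0 and a median of -0.02, and the 3 with an unadjusted p under 0.05 were all lower, where 1.77% of all genes were. Kcnq5 and Kcnq3, subunits of the M current that limits repetitive firing, held 79.4, 105 and 97.6 CPM in the knockout against 106, 110 and 110 CPM in wild type (-0.21 ± 0.08) and 298.1, 295 and 315 CPM against 325, 315 and 337 CPM (-0.11 ± 0.04). Both had separate groups, although knockout 3 and wild type 2 of Kcnq3 differed by less than 1 CPM. Without knockout 1 the log2 fold change of Kcnq5 was -0.11. In the other direction Cacna1a, a presynaptic calcium channel, held 203, 203 and 214 CPM against 190.7, 202 and 198 CPM (0.07 ± 0.04), also with separate groups.

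The genes chosen for bipolar disorder and mania had a median of 0.00, with 9 of 17 above 0 and 16 of 17 intervals within 0.32 log2 units of 0. Shank3, a postsynaptic scaffold whose excess gives mania-like behaviour in mice, held 360, 366 and 357 CPM against 339, 337 and 349 CPM (0.08 ± 0.04). Gsk3b, a kinase that lithium inhibits, held 254, 253 and 255 CPM against 260, 267 and 267 CPM (-0.06 ± 0.04), and Tenm4 and Ank3 lay at -0.11 ± 0.05 and -0.05 ± 0.04. Lithium and inositol signalling had a median of -0.00 with 15 of 17 intervals inside the same range, and Plcb1 and Prkca, a phospholipase and a kinase of that pathway, lay at -0.08 ± 0.04 and -0.07 ± 0.04 with separate groups. Of 24 neuropeptides and neurotrophins 7 lay above 0. Ngfr, the p75 neurotrophin receptor, held 1.2, 1.52 and 1.97 CPM against 2.43, 2.15 and 2.8 CPM (-0.64 ± 0.24), and Ntrk3, the receptor of Ntf3, lay at -0.12 ± 0.05.

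Immune and stress genes were mixed. Of 20 interferon response and MHC class I genes 14 lay below 0, with a median of -0.20, and 4 had an unadjusted p under 0.05, all lower, where 1.77% of all genes did. Usp18, which removes ISG15 and damps interferon signalling, held 0.44, 0.575 and 0.69 CPM in the knockout and 1.27, 1.06 and 1.35 CPM in wild type (-1.09 ± 0.32). Tap1, the peptide transporter of antigen loading, lay at -0.51 ± 0.19 with separate groups, while H2-D1 at -0.33 ± 0.10 and B2m at -0.21 ± 0.07 had overlapping groups. Wild type 2, the library richest in meningeal markers, held the highest summed level of this list, 215 CPM against 175 to 195.4 CPM in the other 5, and without it the median was -0.10. Microglial markers had a median of -0.02, with C1qc at -0.15 ± 0.07 and separate groups. The medians were 0.01 for 15 heat shock genes, 0.01 for 18 genes of ATF4 and endoplasmic reticulum stress, and -0.02 for 11 NRF2 targets.

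Markers of the cells of the hippocampus were read in every library. Summed over the list, dentate granule cell markers took 474 to 594 CPM, CA1 markers 793 to 875 CPM and CA3 markers 157 to 183.6 CPM across the 6 libraries. Their median log2 fold changes were 0.06, -0.01 and -0.09, and that of 6 CA2 markers -0.10. With 1 library left out these medians ran from -0.05 to 0.10, -0.02 to 0.05, -0.19 to 0.03 and -0.21 to -0.02, so that the first 3 changed sign: the dentate median without knockout 1 or wild type 3, the CA1 median without knockout 2 or wild type 3 and the CA3 median without knockout 1. Nectin3, an adhesion protein of CA3, held 41.2, 41.1 and 37.2 CPM against 42, 46.1 and 46.2 CPM (-0.17 ± 0.06), while Bok, another marker of that list, held 61.2, 62.2 and 61.5 CPM against 59.1, 59.4 and 56.4 CPM (0.08 ± 0.05). Both had separate groups. Interneuron markers had a median of -0.03 and oligodendrocyte precursor markers one of 0.04. All 12 astrocyte intervals stayed within 0.32 log2 units of 0. Among 11 genes of immature neurons 8 lay above 0, where 50.8% of all genes did, and 3 lay below, the lowest at -1.07. Besides Draxin, the early neuronal factor Sox11 held 26.5, 23.7 and 23.7 CPM against 22.1, 22.7 and 19.9 CPM (0.19 ± 0.08). Oligodendrocyte markers lay below 0 in 10 of 10 with a median of -0.05, but without knockout 1, the library lowest in them, 10 of 10 lay above 0.

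Single libraries stood apart in markers of neighbouring tissue, in both genotypes. Tcf7l2, a thalamic transcription factor, held 5.04, 18.6 and 5.09 CPM in the knockout and 4.04, 6.15 and 4.11 CPM in wild type, and Prkcd held 20.4, 73.6 and 23.9 CPM against 22.9, 20.1 and 21.8 CPM. Knockout 2 alone was high, and without it their log2 fold changes were 0.08 and 0.03 in place of 1.01 and 0.87. Knockout 3 was low in genes of the ventral hippocampus: Dcn held 47.2, 47.2 and 19.8 CPM against 43.4, 56.7 and 39.7 CPM, and Trhr, the receptor of thyrotropin-releasing hormone, held 10.9, 9.67 and 3.52 CPM against 8.01, 10.4 and 10.1 CPM. Vgll3 and Dio3 stood at 1.18 and 1.28 CPM in that library, while the other 5 libraries held 10.1 to 13.4 and 5.5 to 7.76 CPM.

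In wild type, the meningeal prostaglandin synthase Ptgds held 264, 590 and 231 CPM against 119, 148 and 325 CPM in the knockout, and the choroid plexus transthyretin gene Ttr held 21.2, 2.84 and 9.8 CPM against 4.48, 6.42 and 6.83 CPM. Wild type 2 was thus the highest for Ptgds and wild type 1 for Ttr. The medians of markers from outside the hippocampus were 0.59 for thalamus (4 genes), 0.02 for choroid plexus (9), -0.23 for ependyma (5), 0.08 for striatum (6), 0.04 for neocortex (5) and -0.08 for blood cells (5). Hypothalamus and cerebellum had 2 and 3 tested markers, with medians of -0.21 and -0.02. These medians rested on single libraries: without wild type 1 that of ependyma was 0.42, without knockout 2 that of thalamus was 0.01, and those of choroid plexus, striatum, neocortex, blood cells and cerebellum each changed sign in at least 1 fit without a library. The part of tissue outside the hippocampus in the genotype differences was not tested, apart from the values given with knockout 2, knockout 3 and wild type 2 left out.

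**Figure D4:**
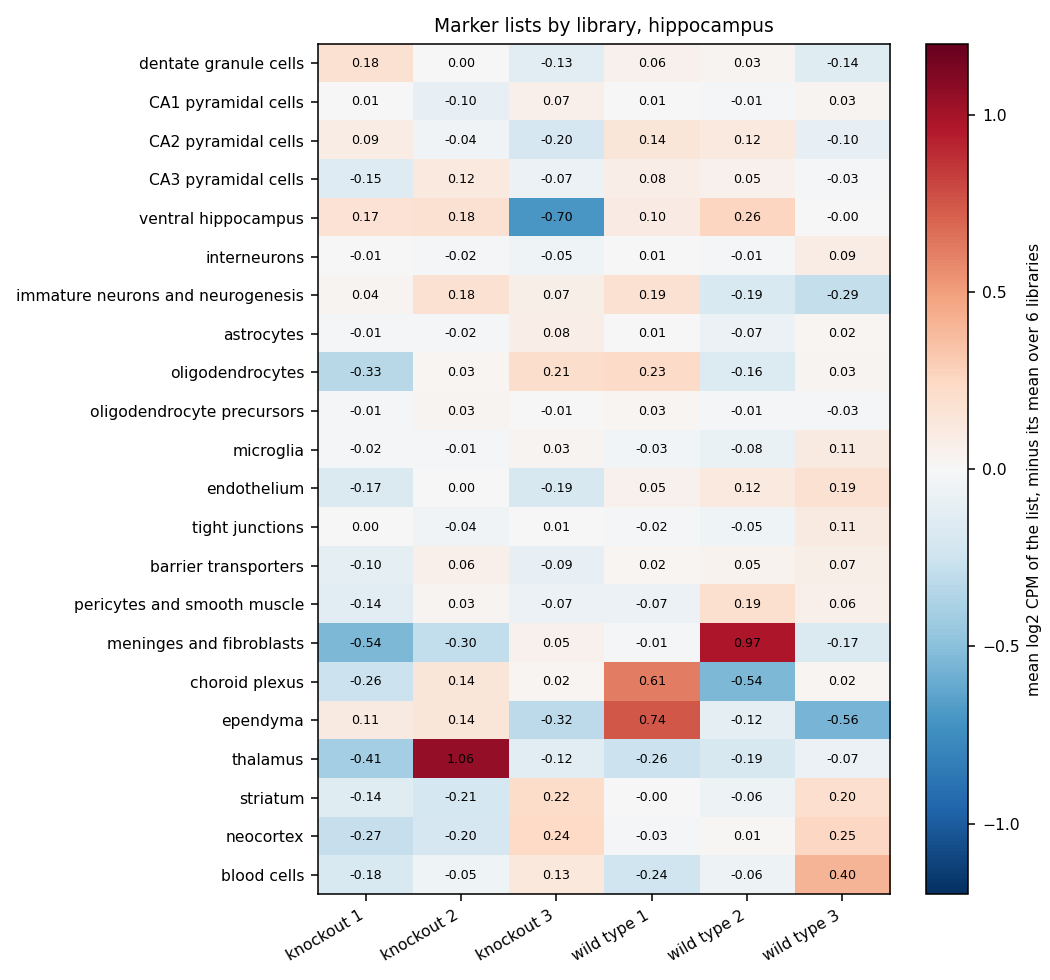
Each cell gives the mean log2 CPM of a marker list in 1 library, minus the mean of that list over the 6 libraries, for lists with a median level of at least 1 CPM. Thalamic markers are at 1.06 in knockout 2, ventral markers at -0.70 in knockout 3 and meningeal markers at 0.97 in wild type 2; endothelial markers are at -0.17, 0.00 and -0.19 in the 3 knockout libraries and at 0.05 to 0.19 in the 3 wild-type libraries.

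How closely these 6 libraries measured a fold change depended on the level of the gene. Each 95% interval here is for a single gene and is not adjusted for the number of genes tested. Its width is therefore not the smallest difference that the adjusted test could call. Syt14 at -0.39 and Per1 at 0.30 did not pass that test, with edgeR adjusted p of 0.686 and 0.792. The 95% interval of the log2 fold change had a median half-width of 0.95 for the 2516 genes under 1 CPM, 0.44 for the 5026 from 1 to 10 CPM, 0.16 for the 7788 from 10 to 100 CPM and 0.10 for the 2363 at 100 CPM or more. The last of these corresponds to a 1.07-fold difference and the first to a 1.93-fold one. Intervals lay wholly within 1.5-fold either way for 12468 genes, or 70.5%, and within 2-fold for 15014, or 84.9%. Below 1 CPM, 0% of intervals lay within 1.5-fold, and Draxin, just above that level, was measured far less closely than Per1 or Syt14.

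**Figure D5:**
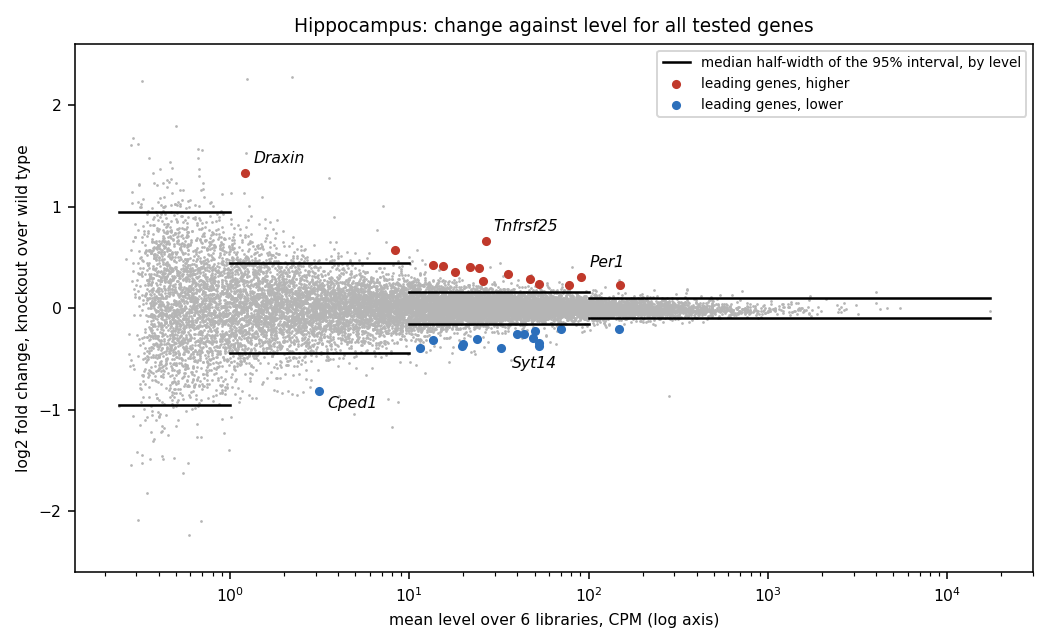
The log2 fold change of each of the 17693 tested genes is plotted against its mean CPM over 6 libraries on a log axis, with the 15 leading higher genes in red and the 15 lower in blue. Black lines give the median half-width of the 95% interval by level, which narrows from 0.95 under 1 CPM to 0.10 at 100 CPM or more; the leading genes lie outside the lines for their level, as their choice by p implies.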

How the data were processed

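Poly(A) RNA of the hippocampus was sequenced from 3 knockout and 3 wild-type mice. The authors deposited raw read counts per gene, whole numbers in 1 table per tissue. Only the hippocampus table was used here. Trimmomatic 0.39, STAR 2.7.10 and featureCounts 2.0.3 with mm10 (GRCm38) are named per the submitters' processing notes, and libraries were strand-specific per the labels' protocols. Strand setting and annotation release of the counting: not given in the sources used here. Overlapping genes may therefore share reads. GENCODE M21 gave symbols and positions for 54409 of 54446 identifiers, and promoter windows came from RefSeq on GRCm38.p6.

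Counts were filtered with filterByExpr (minimum count 10, minimum total 15), scaled with TMM factors and tested with edgeR 4.0.16 quasi-likelihood (two-sided, Benjamini-Hochberg over all tested genes) by genotype. SEs are the size of the log2 change divided by the root of the F statistic. DESeq2 1.42.0 and limma-voom 3.58.1, other factors and filters, leaving out each library and a replicate block were the alternatives. The edgeR fit was also run on simulated counts with known changes in some genes. Those counts were drawn from the fitted dispersion of each gene, without dissection differences between animals. The run therefore cannot check the fit against such differences. The common biological coefficient of variation was 7.54%. No library was a repeat of another of its group (chi-square per gene 4.09 to 10.2). Floors cover counting error only.

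The members and the 47 gene lists were chosen with earlier results of these data known. Named genes are Syt14, the 15 higher and 15 lower with the smallest p at a mean of 1 CPM or more and separate groups (no predicted genes), up to 5 members of each list by p, the synaptotagmins, the 4 nearest neighbours, and the 12 most variable genes at 5 CPM or more. Some of those 12 and some list members are not described. Hmgcs1, Msmo1, Srebf2, Tie1, Flt1, Sox17, Robo4, Tjp1, Fos, Npas4, Nrn1 and Per3 fall outside the rule and were chosen after their values were seen. Counts of genes within an interval use 95% intervals. A few single-gene results are not reported here.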

Additional observations from a re-analysis of the deposited data

How the results depend on the processing

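No gene was called by limma-voom, or by edgeR with RLE or upper-quartile factors or a filter of 1 CPM in 3 libraries. DESeq2 called 2 genes, and 4 when run on the genes of the edgeR filter, which was chosen after seeing the data: Syt14 and Slc7a11 (adjusted p = 0.0196 each), Ptprb (0.0247) and Per1 (0.0356). Without a filter on low counts edgeR called 77 genes, of which 48 had overlapping groups, and 1440 genes had an unadjusted p under 0.05; the cause was not tested. Leaving out 1 library at a time gave 0 to 2 called genes, 609 to 1400 genes at an unadjusted p under 0.05 and 11867 to 12036 intervals within 1.5-fold. The upper value of each belongs to the fit without knockout 3, which called Tshz2 lower (adjusted p = 0.0347) and had 672 genes higher and 728 lower at an unadjusted p under 0.05, against 454 and 313 with all 6 libraries. Genes whose groups did not overlap then numbered 3259 to 4217, since fewer samples separate more easily. Syt14 passed the threshold with DESeq2 (log2 fold change -0.40, adjusted p = 0.0425), with DESeq2 on filtered genes (-0.40) and without a filter (-0.40, 3.22e-04), and lay between -0.43 and -0.37 without 1 library. Whether same-numbered libraries were handled together is not given in the labels used here. Over all tested genes, same-numbered libraries of the genotypes correlated at -0.003, 0.005 and 0.053 in their deviations, and other pairs at -0.040 to 0.036. A correlation over all genes cannot show handling that acts on few of them. The replicate block called 2 genes, Arc (adjusted p = 0.0174) and Nr4a1 (0.0390), in both of which replicate 3 was the highest library of each group. The 111 other named genes with a fold change and the 47 list medians gave 1443 and 610 alternative values, of which 0 gene values reversed, 36 passed the threshold (33 without a filter), and 13 list medians moved by more than the SD between libraries. By level, intervals were widest for genes under 1 CPM.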
